A study of Mus musculus with 45 samples.

Results

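The genes described here belong to the p53 pathway of mouse embryonic stem cells (ESCs): Trp53 itself and its transcriptional targets Cdkn1a, Mdm2, Ccng1, Trp53inp1, Sesn2, Bbc3, Pmaip1, Bax and Perp. The rule takes them by name and uses no measured value, but the list was drawn up with earlier results of these data known. All 10 were found among the 35372 genes of every count table, and all 10 were among the 17107 genes that passed the filter on low counts. The cells were male wild-type ESCs of the E14tg2a line, of 129/Ola origin, and no group carried a targeted allele. They were kept either in 2iL, which is serum-free N2B27 medium with the Gsk3 inhibitor CHIR99021, the Mek inhibitor PD0325901 and the cytokine LIF, or in SL, which is serum with LIF. From each medium the cells entered 3 courses of differentiation: suspension culture in serum without LIF, which gives embryoid bodies (EB), adherent culture in N2B27 with Fgf2 and ActivinA (FA, labelled EpiSC), and adherent culture in N2B27 alone (N2B27, labelled Neural). Total RNA was sequenced with strand information on days 0, 1, 1.5, 2, 2.5, 3, 5 and 7 in 45 libraries, 1 for each medium, course and day. Day 0 had 3 libraries in 2iL but 1 in SL, which all SL courses share, and the FA course from 2iL on day 5 was not analysed here. All results come from 1 cell line, and cells from 2iL had spent only a few passages in that medium before differentiation.

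p53 is a transcription factor that is made continuously and is normally removed by Mdm2, a ubiquitin ligase whose gene p53 itself switches on. After DNA damage and other stresses p53 is stabilised and activates genes that stop the cell cycle (Cdkn1a), damp the response (Mdm2, Ccng1), adjust metabolism and autophagy (Sesn2, Trp53inp1) or promote cell death (Bbc3, Pmaip1, Bax, Perp). Mouse ESCs are known for abundant p53 and for very short G1 phases, and p53 has been linked there to the loss of Nanog during differentiation. These data hold RNA only, so they measure neither p53 protein nor its binding.

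p53 binds DNA as a tetramer on a pair of adjacent decamers, known as the p53 decamer motif. The stretches of RefSeq promoter (GRCm38.p6, from 250 bases before to 50 bases after a start site) that hold a decamer are shown for the 5 of the 10 genes whose promoters carry these letters, a feature that the rule did not use. Each is written 5′ to 3′ on the strand of the gene, with the decamer in capitals.
Cdkn1a, chr17:29090881-29090962 (+): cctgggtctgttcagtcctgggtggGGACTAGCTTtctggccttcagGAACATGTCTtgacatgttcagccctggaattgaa
Trp53, chr11:69580259-69580318 (+): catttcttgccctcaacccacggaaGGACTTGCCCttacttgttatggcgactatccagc
Mdm2, chr10:117710910-117710969 (-): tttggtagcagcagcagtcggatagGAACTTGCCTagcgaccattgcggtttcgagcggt
Ccng1, chr11:40755437-40755496 (-): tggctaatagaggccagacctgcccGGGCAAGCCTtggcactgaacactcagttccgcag
Bax, chr7:45467065-45467124 (-): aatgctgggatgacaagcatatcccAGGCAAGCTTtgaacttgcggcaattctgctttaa

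The decamers start 73 and 51 bases before the start site in Cdkn1a, 75 in Trp53, 186 in Mdm2, 185 in Ccng1 and 201 in Bax. In Cdkn1a the second decamer is followed at once by the bases tgacatgttc, which match 9 of the motif's 10 positions. RefSeq held 10 windows for 7 of the 10 genes. The 3 windows of Bbc3, the window of Sesn2 and a second window of Cdkn1a held no decamer, and Pmaip1, Trp53inp1 and Perp had no entry. Of all 32851 promoter windows of this length, 8.36% held a decamer and 0.359% held 2. The motif reads the same on both strands, so 1 search covers both. These matches describe the letters of the windows and not the use of the sites.

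The 10 genes lie on 6 chromosomes of GRCm38. Trp53 spans chr11:69580359-69591873 (+ strand), Ccng1 chr11:40748552-40755311 (- strand), Cdkn1a chr17:29090976-29100727 (+ strand), Mdm2 chr10:117688875-117710758 (- strand) and Perp chr10:18845020-18857073 (+ strand). Bbc3 spans chr7:16308393-16318205 (+ strand), Bax chr7:45461697-45466898 (- strand), Sesn2 chr4:132492032-132510501 (- strand) and Trp53inp1 chr4:11156431-11174379 (+ strand), and Pmaip1 lies on chromosome 18. All are annotated as protein coding, and their counts cover exons, with merged exon lengths from 1.58 kb (Bax) to 6.47 kb (Trp53inp1). Bax shares 192 of its 1576 exon bases with the gene model Gm45808 on the same strand, so its counts are uncertain to that extent, and 273 exon bases of Cdkn1a face a model on the opposite strand.

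Levels are given as CPM, the usual unit for counts scaled by the total of their library. Library totals ran from 13093226 to 39804240 counts with a median of 18222720, at which 3 counts amount to 0.165 CPM. The 8 EB libraries from 2iL were deeper (median 34490693) than the other 37 (median 17297450). The labelled cell type was checked by its markers. On day 0 the naive pluripotency list (Nanog, Esrrb, Zfp42, Klf2 and Tfcp2l1) summed to 3884 to 4139 CPM in 2iL and 2236 CPM in SL, and by days 5 and 7 to 39.4 to 300.2 CPM and 90.1 to 287 CPM. The SL day 0 library stood apart from the 2iL ones in other cell types' markers as well, in both directions. The endoderm list (Sox17, Gata4, Afp and Ttr) summed to 23.6 CPM there against 0.887 to 2.05 CPM, and the fibroblast list (Thy1, Col1a2 and Twist2) to 5.10 CPM against 0.446 to 0.599 CPM. The mesoderm list (T, Mixl1, Eomes, Hand1 and Gata6) was also higher, at 44.5 CPM against 8.36 to 15.9 CPM. The neural list (Sox1, Pax6, Nes and Tubb3) was lower, at 28.3 CPM against 83.2 to 94.8 CPM. Every SL comparison with day 0 rests on that single library, which is taken to vary like the other groups and cannot be left out. Its markers' part in those results was not tested. In bulk RNA, fewer cells of a type and less RNA per cell cannot be told apart.

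Differences were fitted for all genes in 1 edgeR quasi-likelihood model with the course as a block, and a gene was called when its Benjamini-Hochberg adjusted p was under 0.05. Differences are given as log2 ± standard error, and all adjusted p-values are from edgeR unless another tool is named. The courses and days of a window stand for replicates. The courses were separate cultures in different media, with 1 library at each medium, course and day, and nothing says whether the days of a course were. The p-values measure only the spread between these samples, which may be technical. The 10 genes did not move as 1 block at any time. Leaving 2iL, 1 of the 10 was higher and 4 lower on day 1, where 18.3% of all genes were higher and 19.9% lower, 38.2% together. Over days 1 to 2 from 2iL 1 was higher and 5 lower (all genes 25.6% and 26.9%, together 52.6%). For days 2.5 and 3 the split was 2 and 5 (all genes 30.4% and 31.4%, together 61.8%). By days 5 and 7 the split had turned to 5 higher and 2 lower (all genes 34.0% and 35.1%, together 69.1%). On days 5 and 7 the share called among the 10 was close to that among all genes.

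Leaving SL, 1 gene was higher and 5 lower on day 1 (all genes 10.7% and 11.3%, together 22.0%). Then 2 were higher and 5 lower over days 1 to 2 (all genes 15.4% and 17.6%, together 33.0%). Next, 1 was higher and 4 lower on days 2.5 and 3 (all genes 17.3% and 19.5%, together 36.8%). At the end of the SL courses only Mdm2 still differed from day 0, lower, where 21.2% of all genes were higher and 23.8% lower, 45.1% together. This count was 2 in DESeq2 and 4 when only the libraries compared were fitted. Both of these alternatives called genes in each direction. Without the EB course the genes called were all higher, and Mdm2 was lost at -0.42. Comparisons within a medium share their day 0 libraries, so they are not independent of each other.

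**Figure D1:**
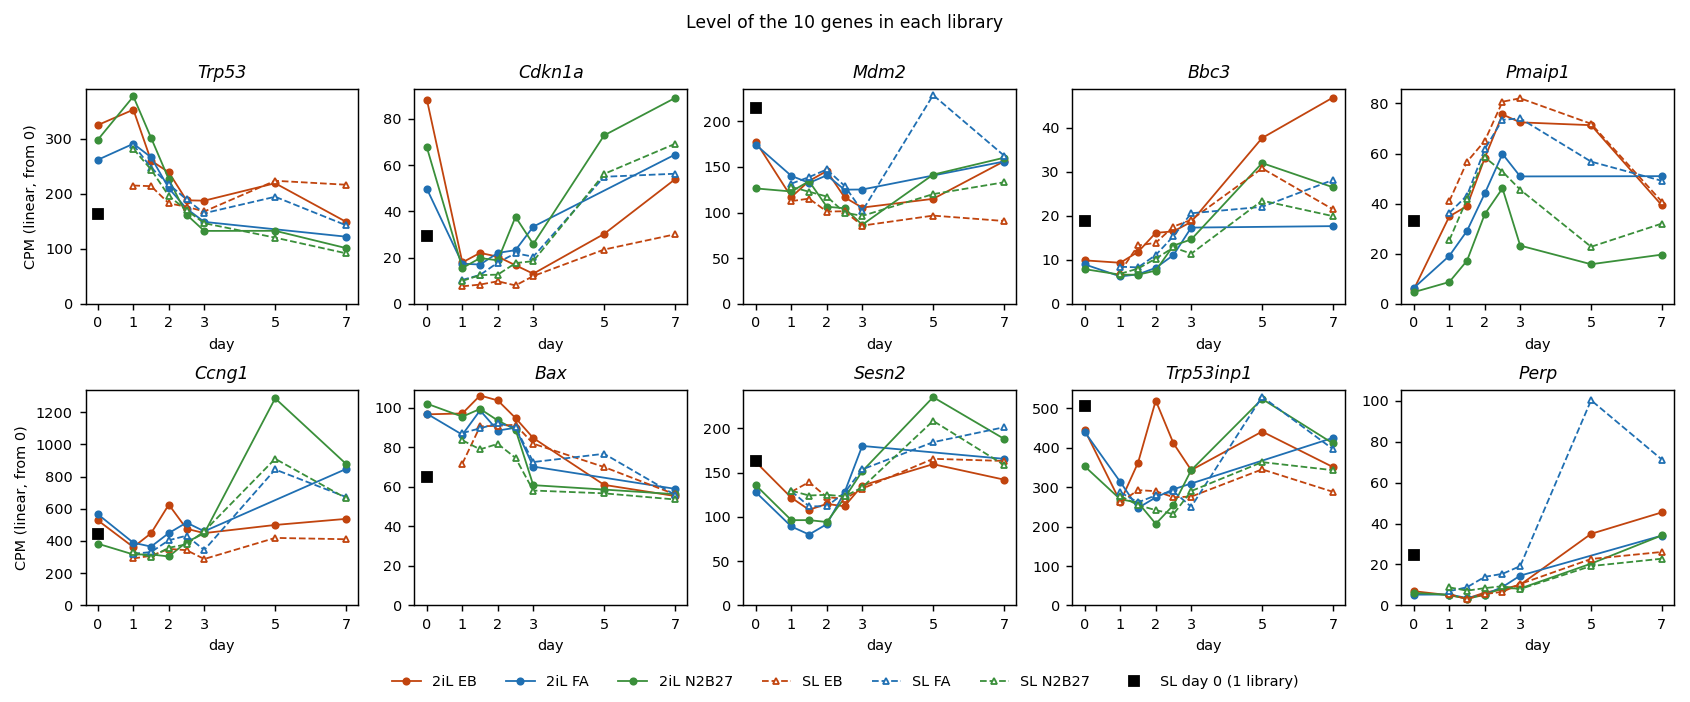
Level of each of the 10 genes in every library, in CPM on a linear axis from 0, against the day of differentiation. Solid lines and filled circles are cells from 2iL, dashed lines and open triangles cells from SL, the colours mark the course, and the black square is the single SL day 0 library. Cdkn1a drops by day 1 and climbs again, and Trp53 in cells from 2iL declines after day 1. Pmaip1 from 2iL lies between 4.62 and 6.32 CPM on day 0 and between 23.2 and 75.6 CPM on days 2.5 and 3.

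Trp53, which encodes p53, was high in 2iL and fell as differentiation went on. On day 0 it stood at 325, 262 and 299 CPM in the 2iL libraries of the EB, FA and N2B27 courses, and at 163 CPM in SL. The 3 2iL libraries were all above the SL library, 1.97-fold on average (log2 difference 0.97 ± 0.20, adjusted p = 3.6e-04). From 2iL, day 1 gave 353, 291 and 377 CPM, which did not pass the test against day 0 (log2 difference 0.17 ± 0.13, adjusted p = 0.33). Neither did days 1 to 2 together, at 210.1 to 377 CPM (median 266), with a difference of -0.10 ± 0.11 (adjusted p = 0.46). Days 2.5 and 3 gave 132 to 188 CPM (median 167), all 6 libraries below the day 0 range, and Trp53 had fallen 1.87-fold (log2 difference -0.90 ± 0.11, adjusted p = 6.0e-08). By days 5 and 7 it stood at 219 and 149 CPM in EB, 133 and 101 CPM in N2B27 and 122 CPM in FA (day 7 only). All 5 were below day 0, and the fall was 2.20-fold (log2 difference -1.14 ± 0.12, adjusted p = 2.3e-09).

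From SL, Trp53 rose first. Day 1 gave 215, 289 and 282 CPM in EB, FA and N2B27, all above the day 0 library, and the rise was 1.67-fold (log2 difference 0.74 ± 0.19, adjusted p = 0.0073). Over days 1 to 2 the 9 libraries held 183 to 289 CPM (median 217) and again all lay above day 0 (log2 difference 0.58 ± 0.18, adjusted p = 0.014). Without the N2B27 course both calls were lost, at 0.66 (adjusted p = 0.057) and 0.51 (adjusted p = 0.066). With no course block both were lost as well, at 0.75 and 0.58. Later SL libraries held 146 to 189.7 CPM (median 169) on days 2.5 and 3 and 91.7 to 224 CPM (median 169) on days 5 and 7, with differences from day 0 of 0.10 ± 0.18 (adjusted p = 0.70) and -0.05 ± 0.17 (adjusted p = 0.84). Trp53 remained higher in cells from 2iL over days 1 to 2, in 8 of 9 pairs of the same course and day (log2 difference 0.30 ± 0.08, adjusted p = 0.0022), and the later differences were -0.03 ± 0.09 (adjusted p = 0.89) and -0.11 ± 0.10 (adjusted p = 0.58). The call over days 1 to 2 was lost without the EB course, 0.20 (adjusted p = 0.084), or without the N2B27 course, 0.26 (adjusted p = 0.064). It was also lost with no course block, at 0.30 (adjusted p = 0.066).

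Cdkn1a encodes p21, an inhibitor of cyclin-dependent kinases and the best known p53 target. It fell within 1 day of leaving either medium, and by days 5 and 7 its levels overlapped or passed those of day 0. In 2iL on day 0 it stood at 88.3, 49.7 and 67.6 CPM in EB, FA and N2B27, and on day 1 at 17.9, 17.3 and 15.4 CPM. No day 1 library reached any day 0 library, and the fall was 4.15-fold (log2 difference -2.05 ± 0.23, adjusted p = 5.0e-08). It stayed low over days 1 to 2, at 15.4 to 22.0 CPM (median 18.8) (log2 difference -1.86 ± 0.17, adjusted p = 2.9e-10), and on days 2.5 and 3, at 12.99 to 37.6 CPM (median 24.5) (log2 difference -1.60 ± 0.18, adjusted p = 1.9e-08). All 15 of these libraries were below day 0. Days 5 and 7 gave 30.2 and 53.9 CPM in EB, 72.9 and 89.1 CPM in N2B27 and 64.6 CPM in FA on day 7. They overlapped the day 0 range, and the difference from day 0 was -0.35 ± 0.20 (adjusted p = 0.11).

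The SL day 0 library held 29.3 CPM of Cdkn1a, below all 3 of the 2iL libraries, which stood 2.54-fold higher (log2 difference 1.34 ± 0.34, adjusted p = 0.0028). Day 1 from SL gave 7.53, 10.3 and 9.88 CPM in EB, FA and N2B27, a fall of 3.05-fold (log2 difference -1.61 ± 0.30, adjusted p = 5.3e-04). The 9 SL libraries of days 1 to 2 held 7.53 to 17.8 CPM (median 10.3) and all lay under day 0 (log2 difference -1.34 ± 0.26, adjusted p = 3.0e-04). So did the 6 of days 2.5 and 3, at 7.92 to 21.8 CPM (median 18.0) (log2 difference -0.87 ± 0.28, adjusted p = 0.016). That last call was lost without the EB course, at -0.53 (adjusted p = 0.11). On days 5 and 7 the SL libraries held 23.5 to 69.2 CPM (median 55.6), with a difference from day 0 of 0.63 ± 0.31 (adjusted p = 0.097). The direction between the media was kept: cells from 2iL held more Cdkn1a in all 9 pairs of days 1 to 2 (log2 difference 0.83 ± 0.13, adjusted p = 1.7e-05), and in all 6 pairs of days 2.5 and 3 (log2 difference 0.61 ± 0.16, adjusted p = 0.010). They did so in all 5 pairs of days 5 and 7, where the test was not passed (log2 difference 0.36 ± 0.17, adjusted p = 0.23). The call of days 2.5 and 3 was lost without the N2B27 course, at 0.47 (adjusted p = 0.25). With no course block, the calls of the media on day 0 and of SL day 1 were also lost, at 1.34 and -1.60. So was that of SL days 1 to 2, at -1.33.

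Mdm2, the ubiquitin ligase that removes p53, had smaller differences from day 0 than Cdkn1a in every window from 2iL and over days 1 to 2 from SL, but not later from SL. Its 2iL day 0 libraries held 178, 174 and 126 CPM in EB, FA and N2B27, and the SL library held 214 CPM, above all 3, although the difference did not pass the test (log2 difference -0.32 ± 0.21, adjusted p = 0.24). On day 1 it stood at 117, 140.2 and 123 CPM from 2iL and 113, 132 and 128 CPM from SL. It had fallen from SL (log2 difference -0.73 ± 0.20, adjusted p = 0.012), and the 2iL difference was -0.36 ± 0.15 (adjusted p = 0.058). Over days 1 to 2 Mdm2 was lower than day 0 from 2iL (log2 difference -0.29 ± 0.12, adjusted p = 0.049), at 106 to 146 CPM (median 134), and from SL (log2 difference -0.72 ± 0.18, adjusted p = 0.0032), at 101 to 147 CPM (median 123). The 2iL call sat at the threshold: without the EB, FA or N2B27 course it was lost at -0.21 (adjusted p = 0.24), -0.22 (adjusted p = 0.14) and -0.39 (adjusted p = 0.092). Its low point came on days 2.5 and 3, at 86.7 to 125 CPM (median 111) from 2iL (log2 difference -0.59 ± 0.13, adjusted p = 2.7e-04) and 85.7 to 129 CPM (median 101) from SL (log2 difference -1.03 ± 0.18, adjusted p = 7.2e-05), with all 12 libraries below their own day 0. Late in the courses, on days 5 and 7, it stood at 115 to 160.1 CPM (median 156) from 2iL, -0.17 ± 0.14 (adjusted p = 0.28) from day 0. It stood at 90.7 to 229 CPM (median 127) from SL, where 5 of 6 libraries lay under day 0 (log2 difference -0.69 ± 0.19, adjusted p = 0.0039). Without the EB course the last call was lost at -0.42 (adjusted p = 0.082), and without the N2B27 course so was the SL day 1 call at -0.78 (adjusted p = 0.059). With no course block the SL calls of day 1, days 1 to 2 and days 5 and 7 were lost, at -0.73, -0.71 and -0.63. In no window did Mdm2 differ between the media by this test, with differences from 0.11 to 0.20 after day 0.

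Ccng1, Trp53inp1 and Sesn2 were each lower over days 1 to 2 from 2iL, and Trp53inp1 also from SL. Ccng1 encodes cyclin G1, which acts with a phosphatase on Mdm2. It was the most abundant of the 10 genes in every group once levels were divided by exon length. In 2iL it stood at 528, 566 and 383 CPM on day 0 in EB, FA and N2B27 and at 362, 389 and 316 CPM on day 1, with 2 of 3 libraries under the day 0 range (log2 difference -0.50 ± 0.15, adjusted p = 0.011). It stood over days 1 to 2 at 304 to 626 CPM (median 365) (log2 difference -0.33 ± 0.12, adjusted p = 0.026). Both calls were lost without the FA course, at -0.43 (adjusted p = 0.18) and -0.20 (adjusted p = 0.43). By days 5 and 7 it had risen 1.52-fold over day 0 (log2 difference 0.60 ± 0.14, adjusted p = 5.0e-04), with 499 and 537 CPM in EB, 1285 and 878 CPM in N2B27 and 847 CPM in FA on day 7. The EB libraries lay within the day 0 range, and without the N2B27 course the rise was 0.21 (adjusted p = 0.28). From SL, where day 0 held 446 CPM, no window passed the test, although all 9 libraries of days 1 to 2 lay under day 0 (log2 difference -0.35 ± 0.19, adjusted p = 0.17) and 4 of 6 of days 5 and 7 above it (log2 difference 0.49 ± 0.21, adjusted p = 0.060).

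Trp53inp1 encodes a stress-induced protein with roles in autophagy and in the p53 response. On day 0 it held 444, 439.9 and 353 CPM in the 2iL libraries of EB, FA and N2B27 and 507 CPM in SL. Day 1 gave 263, 313 and 269 CPM from 2iL and 262, 287 and 278 CPM from SL, all 6 below their day 0. The falls were 1.49-fold from 2iL (log2 difference -0.57 ± 0.16, adjusted p = 0.0062) and 1.75-fold from SL (log2 difference -0.81 ± 0.22, adjusted p = 0.0095). It was also lower over days 1 to 2 from 2iL (log2 difference -0.47 ± 0.13, adjusted p = 0.0029) and SL (log2 difference -0.82 ± 0.19, adjusted p = 0.0018). The same held over days 2.5 and 3 from 2iL (log2 difference -0.40 ± 0.14, adjusted p = 0.014) and SL (log2 difference -0.87 ± 0.20, adjusted p = 0.0011). Without the FA course the 3 calls from 2iL were lost at -0.58 (adjusted p = 0.058), -0.34 (adjusted p = 0.12) and -0.29 (adjusted p = 0.20), the last also without N2B27 at -0.45 (adjusted p = 0.054). The SL day 1 call stood at -0.82 (adjusted p = 0.050) without FA. One library went its own way: EB from 2iL on day 2 held 520.0 CPM, above day 0, where FA and N2B27 held 274 and 207 CPM. On days 5 and 7 the differences from day 0 were 0.03 ± 0.15 (adjusted p = 0.88) from 2iL and -0.45 ± 0.21 (adjusted p = 0.076) from SL.

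Sesn2 encodes sestrin 2, a stress sensor that restrains mTORC1. It stood at 162, 128 and 136 CPM on day 0 in 2iL and 163 CPM in SL. All 9 libraries of days 1 to 2 from 2iL lay under the day 0 range, at 80.0 to 122 CPM (median 96.2), a fall of 1.44-fold (log2 difference -0.53 ± 0.09, adjusted p = 1.1e-05). It was present on day 1 (log2 difference -0.52 ± 0.11, adjusted p = 4.9e-04). The SL libraries of the same days were also all under their day 0, at 112 to 139 CPM (median 125), but the test was not passed (log2 difference -0.31 ± 0.14, adjusted p = 0.086). In all 9 pairs of these days Sesn2 was lower in cells from 2iL than in cells from SL (log2 difference -0.30 ± 0.06, adjusted p = 4.0e-04). It reached 142 to 235 CPM (median 165) from 2iL on days 5 and 7, 1.17-fold above day 0 (log2 difference 0.23 ± 0.10, adjusted p = 0.045). This call was lost without FA at 0.18 (adjusted p = 0.19) and without N2B27 at 0.08 (adjusted p = 0.61). From SL it held 159 to 208 CPM (median 175) on those days (log2 difference 0.14 ± 0.15, adjusted p = 0.45).

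The 4 genes tied to cell death did not all take the same path, although Bbc3 and Perp ran alike (r = 0.79 over the 45 libraries). Pmaip1 encodes Noxa, a BH3-only protein that neutralises Mcl1, and it rose more than any other of the 10 genes on leaving 2iL. It stood at 5.74, 6.32 and 4.62 CPM on day 0 in the EB, FA and N2B27 libraries, and at 34.9, 19.1 and 8.67 CPM on day 1. All 3 were already above day 0, with a rise of 3.39-fold (log2 difference 1.76 ± 0.27, adjusted p = 9.3e-06). The 9 libraries of days 1 to 2 held 8.67 to 58.2 CPM (median 34.9) (log2 difference 2.37 ± 0.25, adjusted p = 5.1e-09). The 6 of days 2.5 and 3 held 23.2 to 75.6 CPM (median 55.3), 9.001-fold over day 0 (log2 difference 3.17 ± 0.26, adjusted p = 3.7e-11). It remained 6.20-fold higher on days 5 and 7 (log2 difference 2.63 ± 0.26, adjusted p = 1.0e-09), at 71.3 and 39.2 CPM in EB, 15.8 and 19.6 CPM in N2B27 and 51.0 CPM in FA on day 7. No library after day 0 fell back into the day 0 range.

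In SL Pmaip1 was already at 32.9 CPM on day 0, 5.50-fold above the 2iL libraries (log2 difference -2.46 ± 0.34, adjusted p = 3.0e-06). It rose further on days 2.5 and 3, to 45.6 to 82.1 CPM (median 73.8), all 6 above day 0 (log2 difference 1.06 ± 0.35, adjusted p = 0.020). This call was lost without the FA course at 0.99 (adjusted p = 0.12). Day 1, days 1 to 2 and days 5 and 7 from SL did not pass the test, with differences of 0.09 ± 0.35 (adjusted p = 0.89), 0.57 ± 0.34 (adjusted p = 0.20) and 0.39 ± 0.34 (adjusted p = 0.36). Cells from 2iL held less Pmaip1 than cells from SL in all 9 pairs of days 1 to 2 (log2 difference -0.66 ± 0.14, adjusted p = 6.3e-04) and in all 6 of days 2.5 and 3, where the difference no longer passed (log2 difference -0.35 ± 0.17, adjusted p = 0.17).

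Bbc3 encodes Puma, another BH3-only protein. It rose late from 2iL: 9.84, 8.92 and 7.84 CPM on day 0 and 6.19 to 16.1 CPM (median 7.52) over days 1 to 2 (log2 difference -0.08 ± 0.19, adjusted p = 0.76) were followed by 11.05 to 18.6 CPM (median 15.5) on days 2.5 and 3 (log2 difference 0.70 ± 0.20, adjusted p = 0.0035). That first rise was lost without the N2B27 course, at 0.67 (adjusted p = 0.070). Late, on days 5 and 7, EB held 37.6 and 46.8 CPM, N2B27 31.9 and 26.4 CPM and FA on day 7 17.6 CPM, all above day 0, a rise of 3.21-fold (log2 difference 1.68 ± 0.22, adjusted p = 1.0e-07). From SL the path began with a fall: day 0 held 18.7 CPM, above the 2iL libraries (log2 difference -0.96 ± 0.30, adjusted p = 0.014). Day 1 held 7.29, 8.40 and 6.80 CPM, down 2.36-fold (log2 difference -1.24 ± 0.30, adjusted p = 0.0047). All 9 libraries of days 1 to 2 were under day 0, at 6.80 to 13.8 CPM (median 8.40) (log2 difference -0.91 ± 0.27, adjusted p = 0.0098). Without the N2B27 course the calls of SL day 1, SL days 1 to 2 and the media on day 0 were lost, at -1.19 (adjusted p = 0.057), -0.86 (adjusted p = 0.068) and -0.94 (adjusted p = 0.088). By days 5 and 7 the SL libraries held 19.9 to 30.7 CPM (median 22.7), all 6 above the single day 0 library without passing the test (log2 difference 0.38 ± 0.30, adjusted p = 0.32).

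Bax encodes the protein that opens the outer mitochondrial membrane, and it went the opposite way to Bbc3 from 2iL. It varied little between the 2iL day 0 libraries, at 96.6, 96.9 and 102 CPM, and over days 1 to 2 at 86.3 to 106 CPM (median 97.0) (log2 difference -0.04 ± 0.09, adjusted p = 0.76). It then fell, to 60.8 to 94.7 CPM (median 86.7) on days 2.5 and 3 (log2 difference -0.35 ± 0.09, adjusted p = 0.0016) and 55.3 to 60.9 CPM (median 58.6) on days 5 and 7, where it was 1.81-fold lower (log2 difference -0.86 ± 0.10, adjusted p = 7.6e-09). Every library of both windows lay under the day 0 range. In SL it began at 64.9 CPM, below all 2iL libraries (log2 difference 0.72 ± 0.16, adjusted p = 7.8e-04). It rose over days 1 to 2 to 71.7 to 92.0 CPM (median 87.1), all 9 above day 0 (log2 difference 0.46 ± 0.14, adjusted p = 0.013), and ended at 53.5 to 76.6 CPM (median 56.4) (log2 difference -0.09 ± 0.14, adjusted p = 0.61). Bax was higher over days 1 to 2 in cells from 2iL in 7 of 9 pairs (log2 difference 0.22 ± 0.06, adjusted p = 0.0056). This call was lost without EB at 0.17 (adjusted p = 0.12) and without N2B27 at 0.17 (adjusted p = 0.062).

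Perp encodes a tetraspan membrane protein of desmosomes with a part in p53-dependent cell death. It rose late from 2iL and fell early from SL, and its highest levels were in the FA course from SL. In 2iL it stood at 6.96, 5.26 and 6.11 CPM on day 0, 3.26 to 6.27 CPM (median 5.15) over days 1 to 2 (log2 difference -0.39 ± 0.29, adjusted p = 0.27) and 7.92 to 14.6 CPM (median 8.72) on days 2.5 and 3 (log2 difference 0.57 ± 0.31, adjusted p = 0.11). It rose 5.88-fold by days 5 and 7 (log2 difference 2.56 ± 0.35, adjusted p = 2.7e-07), to 35.0 and 45.5 CPM in EB, 20.4 and 34.2 CPM in N2B27 and 34.1 CPM in FA on day 7, all above day 0. The SL day 0 library already held 24.6 CPM, and its endoderm markers were raised as given above. The 2iL libraries were 3.70-fold lower (log2 difference -1.89 ± 0.45, adjusted p = 0.0018). Leaving SL, Perp fell to 5.50, 6.96 and 8.84 CPM on day 1, 3.35-fold (log2 difference -1.74 ± 0.45, adjusted p = 0.0071). It stayed under day 0 in all 9 libraries of days 1 to 2 (log2 difference -1.68 ± 0.38, adjusted p = 0.0014) and in all 6 of days 2.5 and 3 (log2 difference -1.12 ± 0.41, adjusted p = 0.034). The last call was lost without EB at -0.93 (adjusted p = 0.094) and without N2B27 at -0.999 (adjusted p = 0.16). Late from SL it spread widely, with 22.7 and 26.1 CPM in EB, 100.2 and 71.2 CPM in FA and 19.2 and 22.8 CPM in N2B27, and did not differ from day 0 by the test (log2 difference 0.55 ± 0.46, adjusted p = 0.34). The EB and N2B27 libraries thus lay around the day 0 level and both FA libraries far above it.

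**Figure D2:**
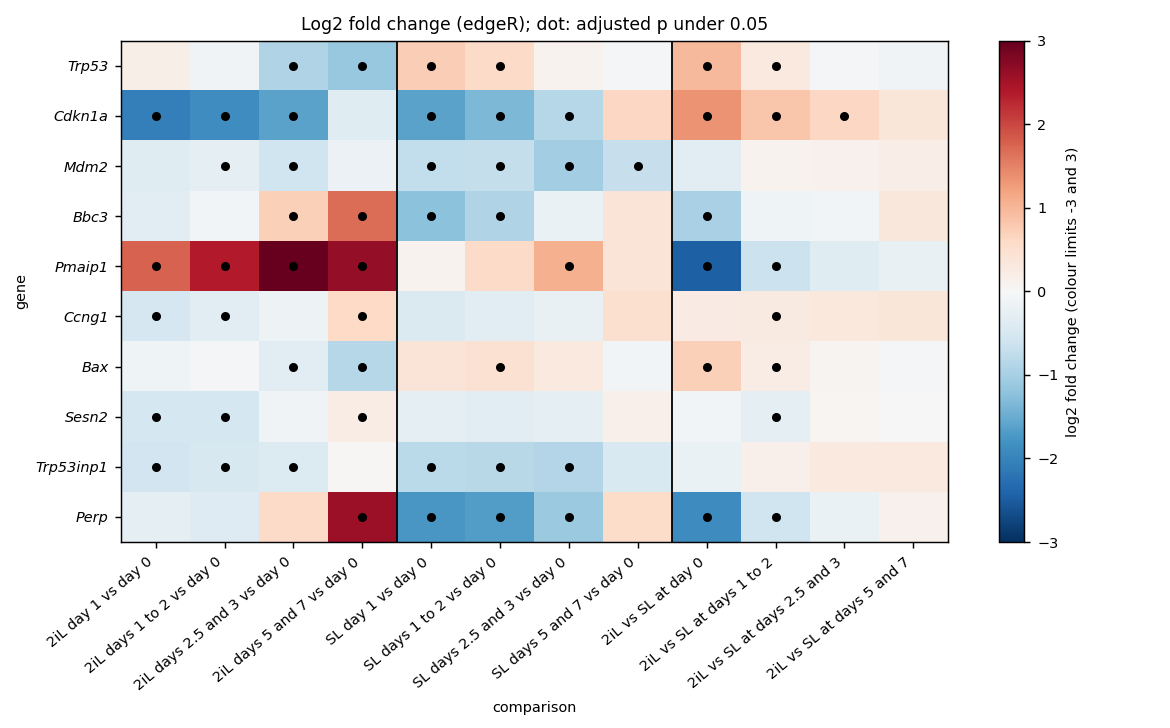
Log2 fold change of the 10 genes (rows) in the 12 comparisons of days with day 0 and of 2iL with SL (columns), with colours limited at -3 and 3 and a dot where the adjusted p from edgeR was under 0.05. Red is higher and blue lower in the group named first. The rows differ in pattern: Cdkn1a is lower through day 3 from both media, while Pmaip1 is higher in all windows from 2iL, with a log2 difference of 3.17 on days 2.5 and 3 that lies beyond the colour limit.

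Between the media the size of the differences ranged widest before differentiation, from -2.46 to 1.34, while more of the 10 genes passed over days 1 to 2. On day 0, Trp53, Cdkn1a and Bax were higher in 2iL, and Bbc3, Pmaip1 and Perp lower, 6 of 10 in all, where 17.5% of all genes were higher and 17.8% lower, 35.3% together. Mdm2, Ccng1, Sesn2 and Trp53inp1 gave differences from -0.32 to 0.25 that did not pass. Over days 1 to 2, 4 genes were higher from 2iL and 3 lower (all genes 20.8% and 20.5%, together 41.3%). Besides those above, these were Ccng1, at 0.27 ± 0.09 (adjusted p = 0.018), and Perp, at -0.60 ± 0.21 (adjusted p = 0.025). Ccng1 lost its call without EB at 0.09 (adjusted p = 0.37) and without FA at 0.31 (adjusted p = 0.10), and Perp without FA at -0.36 (adjusted p = 0.13) and without N2B27 at -0.49 (adjusted p = 0.25). On days 2.5 and 3 Cdkn1a alone passed, higher (all genes 8.18% higher and 7.29% lower, together 15.5%). None of the 10 passed in edgeR on days 5 and 7, where 1.71% of all genes were higher and 2.88% lower, 4.58% together. There 3 of the 10 had an unadjusted p under 0.05, and DESeq2 also called 0. The differences on those days lay between -0.22 for Pmaip1 and 0.36 for Cdkn1a.

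**Figure D3:**
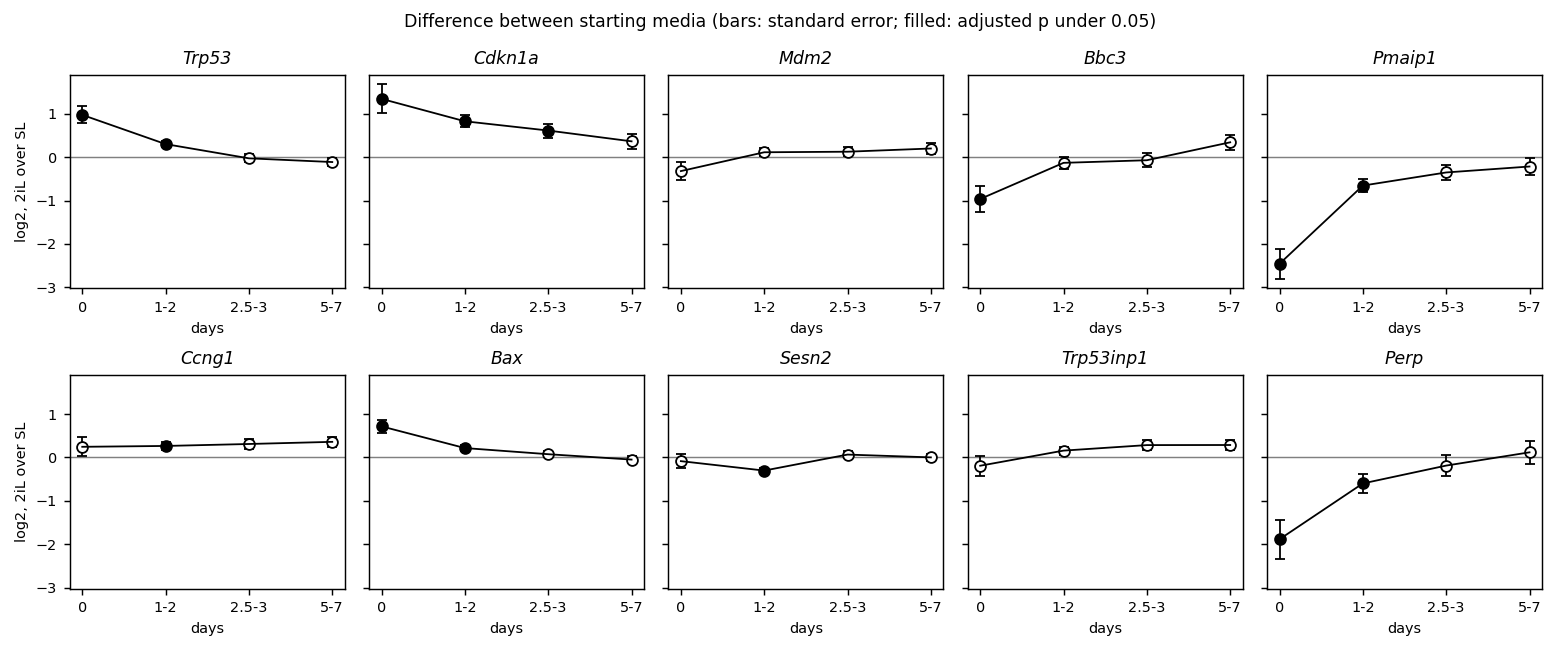
Log2 difference between cells from 2iL and cells from SL for each gene on day 0 and in the windows of days 1 to 2, 2.5 to 3 and 5 to 7. Bars are standard errors from edgeR and filled points have an adjusted p under 0.05. Differences run from -2.46 to 1.34 on day 0 and from -0.22 to 0.36 on days 5 and 7.

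The courses were compared with both media together and then within each medium, since each course began from both. Over days 1 to 2, EB differed from N2B27 in 3 of the 10 genes (2 higher, 1 lower, all genes 15.2% and 14.9%, together 30.1%), and from FA in 2, both higher (all genes 12.4% higher and 11.7% lower, together 24.1%). Against N2B27, EB held more Pmaip1 (log2 difference 0.73 ± 0.18, adjusted p = 0.0026) and Bbc3 (log2 difference 0.53 ± 0.16, adjusted p = 0.014) in all 6 pairs of medium and day. It held less Trp53 in 5 of 6 (log2 difference -0.26 ± 0.09, adjusted p = 0.037), a call lost with library totals at -0.15 (adjusted p = 0.19) and with no filter on low counts at -0.24 (adjusted p = 0.072). Within 2iL these were 1.13 ± 0.26 (adjusted p = 0.0080), 0.68 ± 0.14 (adjusted p = 0.0051) and -0.21 ± 0.10 (adjusted p = 0.17). Within SL they were 0.37 ± 0.18 (adjusted p = 0.17), 0.39 ± 0.19 (adjusted p = 0.18) and -0.27 ± 0.09 (adjusted p = 0.049). Against FA, EB held more Bbc3 (log2 difference 0.56 ± 0.16, adjusted p = 0.012) and Sesn2 (log2 difference 0.30 ± 0.08, adjusted p = 0.0068), which passed within 2iL, at 0.85 ± 0.14 (adjusted p = 0.0024) and 0.45 ± 0.09 (adjusted p = 0.0076), and not within SL, at 0.28 ± 0.19 (adjusted p = 0.35) and 0.15 ± 0.10 (adjusted p = 0.37). The Bbc3 call was lost without the N2B27 course, at 0.57 (adjusted p = 0.056). Within SL other genes passed, all lower in EB. Against FA these were Perp, -1.06 ± 0.25 (adjusted p = 0.016), Cdkn1a, -0.65 ± 0.15 (adjusted p = 0.013), Mdm2, -0.35 ± 0.10 (adjusted p = 0.036), and Trp53, -0.29 ± 0.09 (adjusted p = 0.042). Against N2B27 they were Perp, -0.85 ± 0.25 (adjusted p = 0.037), and Cdkn1a, -0.50 ± 0.15 (adjusted p = 0.035), besides Trp53. Within 2iL none of these passed, with Perp at 0.07 ± 0.16 (adjusted p = 0.82) and Cdkn1a at 0.15 ± 0.22 (adjusted p = 0.69) against FA. Between FA and N2B27 over days 1 to 2, edgeR called 0 of the 10 genes (all genes 0.830% higher and 0.877% lower, together 1.71%) and so did DESeq2, and 2 genes had an unadjusted p under 0.05. The same held for days 2.5 and 3 (all genes 6.73% higher and 5.85% lower, together 12.6%, again 2 genes at an unadjusted p under 0.05, and 0 in DESeq2).

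On days 2.5 and 3 EB stood out by low Cdkn1a. It held 16.6 and 12.99 CPM from 2iL and 7.92 and 12.0 CPM from SL, below N2B27 and FA in all 4 pairs of each. The difference was -1.09 ± 0.20 (adjusted p = 1.1e-04) against N2B27 and -1.05 ± 0.20 (adjusted p = 3.1e-04) against FA. It passed within each medium as well: against N2B27 -1.28 ± 0.27 (adjusted p = 0.0044) within 2iL and -0.91 ± 0.18 (adjusted p = 0.0032) within SL, and against FA -0.99 ± 0.27 (adjusted p = 0.020) and -1.12 ± 0.18 (adjusted p = 0.0023). Pmaip1 was higher in EB than in N2B27 (log2 difference 0.85 ± 0.21, adjusted p = 0.0027), within 2iL 0.97 ± 0.31 (adjusted p = 0.032) and within SL 0.68 ± 0.22 (adjusted p = 0.035). Bax was slightly higher in EB than in N2B27 (log2 difference 0.24 ± 0.09, adjusted p = 0.040). The call was lost within 2iL at 0.10 ± 0.11 (adjusted p = 0.51), without FA at 0.22 (adjusted p = 0.063) and in DESeq2 at 0.21 (adjusted p = 0.057). Sesn2 was slightly lower in EB than in FA (log2 difference -0.26 ± 0.10, adjusted p = 0.046). The call was lost within SL at -0.19 ± 0.13 (adjusted p = 0.35) and without N2B27 at -0.27 (adjusted p = 0.055). In all, 3 genes differed between EB and N2B27 (2 higher, 1 lower, all genes 19.3% and 18.9%, together 38.3%) and 2 between EB and FA, both lower (all genes 13.6% lower, together 27.8%).

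By days 5 and 7 EB differed from N2B27 in 6 genes, 2 higher and 4 lower (all genes 23.0% and 22.4%, together 45.4%). Cdkn1a in EB was below N2B27 in all 4 pairs, at 30.2 and 53.9 CPM against 72.9 and 89.1 CPM on days 5 and 7 from 2iL and 23.5 and 30.0 CPM against 56.2 and 69.2 CPM from SL, a difference of -1.19 ± 0.19 (adjusted p = 1.6e-05). Within 2iL it was -1.10 ± 0.26 (adjusted p = 0.0052) and within SL -1.31 ± 0.17 (adjusted p = 1.9e-04). Ccng1 was likewise lower in EB in all 4 pairs (log2 difference -1.06 ± 0.13, adjusted p = 5.4e-07), within 2iL -1.14 ± 0.19 (adjusted p = 5.1e-04) and within SL -0.99 ± 0.12 (adjusted p = 1.7e-04). Its SL libraries held 419 and 411 CPM in EB and 910.2 and 666 CPM in N2B27. Trp53 went the other way and was higher in EB in all 4 pairs (log2 difference 0.76 ± 0.11, adjusted p = 6.0e-06), at 224 and 216 CPM from SL against 120.2 and 91.7 CPM in N2B27, within 2iL 0.54 ± 0.13 (adjusted p = 0.0050) and within SL 0.99 ± 0.11 (adjusted p = 8.1e-05).

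Pmaip1 was higher in EB in all 4 pairs as well (log2 difference 1.20 ± 0.22, adjusted p = 7.8e-05), within 2iL 1.49 ± 0.32 (adjusted p = 0.0028) and within SL 0.92 ± 0.23 (adjusted p = 0.0097). Mdm2 and Sesn2 were lower in EB, at -0.38 ± 0.13 (adjusted p = 0.020) and -0.41 ± 0.10 (adjusted p = 9.7e-04). The Mdm2 call held within SL, -0.52 ± 0.12 (adjusted p = 0.0077), and was lost within 2iL, -0.27 ± 0.14 (adjusted p = 0.14). It was also lost with library totals at -0.29 (adjusted p = 0.082) and with only the libraries compared at -0.39 (adjusted p = 0.18). The Sesn2 call held within 2iL, -0.58 ± 0.12 (adjusted p = 0.0017), and was lost within SL, -0.24 ± 0.12 (adjusted p = 0.17). The mesoderm list (T, Mixl1, Eomes, Hand1 and Gata6) summed to 182 to 726 CPM in the EB libraries of these days and to 43.2 to 123 CPM in those of N2B27, and the endoderm list to 29.9 to 789 CPM and 76.0 to 293 CPM. The neural list (Sox1, Pax6, Nes and Tubb3) summed to 97.2 to 262 CPM in EB and 344 to 612 CPM in N2B27, with no overlap. The part of these lists in the differences was not tested.

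FA held more Pmaip1 (log2 difference 1.17 ± 0.24, adjusted p = 3.6e-04), Trp53 (log2 difference 0.45 ± 0.13, adjusted p = 0.0075) and Perp (log2 difference 1.49 ± 0.33, adjusted p = 9.1e-04) than N2B27 on days 5 and 7, 3 of 10 genes, all higher (all genes 19.0% higher and 16.4% lower, together 35.3%). Within 2iL, FA has the day 7 library alone in this window, so each value there rests on 1 library that is assumed to vary like the others. Pmaip1 passed within 2iL, 1.49 ± 0.39 (adjusted p = 0.022), and within SL, 0.92 ± 0.22 (adjusted p = 0.0099). Trp53 passed within SL, 0.64 ± 0.11 (adjusted p = 0.0011), but not within 2iL, 0.14 ± 0.17 (adjusted p = 0.62). Perp passed within SL, with 100.2 and 71.2 CPM in FA against 19.2 and 22.8 CPM in N2B27 on days 5 and 7, a difference of 2.00 ± 0.28 (adjusted p = 2.8e-04) within SL. Within 2iL it was -0.09 ± 0.23 (adjusted p = 0.84), with 34.1 CPM in FA and 34.2 CPM in N2B27 on day 7. Within SL, Mdm2 was also higher in FA, at 0.59 ± 0.12 (adjusted p = 0.0038), with 229 and 163 CPM on days 5 and 7 against 120.2 and 133 CPM, and so was Trp53inp1, at 0.36 ± 0.10 (adjusted p = 0.019). Within 2iL those 2 were -0.28 ± 0.18 (adjusted p = 0.33) and -0.13 ± 0.30 (adjusted p = 0.82). Bbc3, at 17.6 CPM in that single 2iL FA library, gave -0.92 ± 0.23 (adjusted p = 0.017) within 2iL and 0.20 ± 0.22 (adjusted p = 0.53) within SL, and the difference between the media was not tested. The endoderm list, which was raised in SL day 0, summed to 25.6 and 9.41 CPM in the SL FA libraries of days 5 and 7. The fibroblast list summed to 26.1 and 80.2 CPM there and to 11.7 and 11.05 CPM in SL N2B27, and to 47.8 CPM in the 2iL FA library of day 7. The part of these lists in the differences was not tested.

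Between EB and FA on days 5 and 7, 6 genes differed in the joint fit, all lower in EB (all genes 8.44% higher and 10.6% lower, together 19.1%): Cdkn1a, Mdm2, Ccng1, Sesn2, Trp53inp1 and Perp. Within SL 5 of the 6 passed. The joint fit called 3263 of all genes in this comparison. The number called within SL stayed inside the limit given below for a moved count, and its exact share is not given. Within 2iL FA has 1 library, so calls there cannot be set against those within SL. Within SL Ccng1 gave -0.92 ± 0.12 (adjusted p = 5.0e-04), Mdm2 -1.11 ± 0.12 (adjusted p = 1.2e-04), Perp -1.87 ± 0.27 (adjusted p = 8.7e-04), Cdkn1a -1.13 ± 0.17 (adjusted p = 9.1e-04), Trp53inp1 -0.60 ± 0.10 (adjusted p = 0.0018) and Sesn2 -0.30 ± 0.12 (adjusted p = 0.13). Within 2iL, where FA has 1 library in this window that is assumed to vary like the others, Ccng1 was at -0.74 ± 0.24 (adjusted p = 0.068), Cdkn1a at -0.32 ± 0.33 (adjusted p = 0.61), Trp53inp1 at -0.21 ± 0.30 (adjusted p = 0.72), Sesn2 at -0.19 ± 0.15 (adjusted p = 0.48), Mdm2 at 0.01 ± 0.18 (adjusted p = 0.99) and Perp at 0.58 ± 0.24 (adjusted p = 0.15), the last 2 with the opposite sign. Bbc3 passed there against that 1 FA library, at 1.35 ± 0.22 (adjusted p = 0.0028), and was at -0.03 ± 0.22 (adjusted p = 0.95) within SL. Without the N2B27 course the joint calls of Cdkn1a, -0.80 (adjusted p = 0.069), Sesn2, -0.24 (adjusted p = 0.18), Trp53inp1, -0.46 (adjusted p = 0.10), and Perp, -1.09 (adjusted p = 0.11), were lost. With only the libraries compared these calls were lost as well, and so was that of Mdm2 at -0.73, which left Ccng1 alone. In that fit 406 of all genes were called, in place of 3263.

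**Figure D4:**
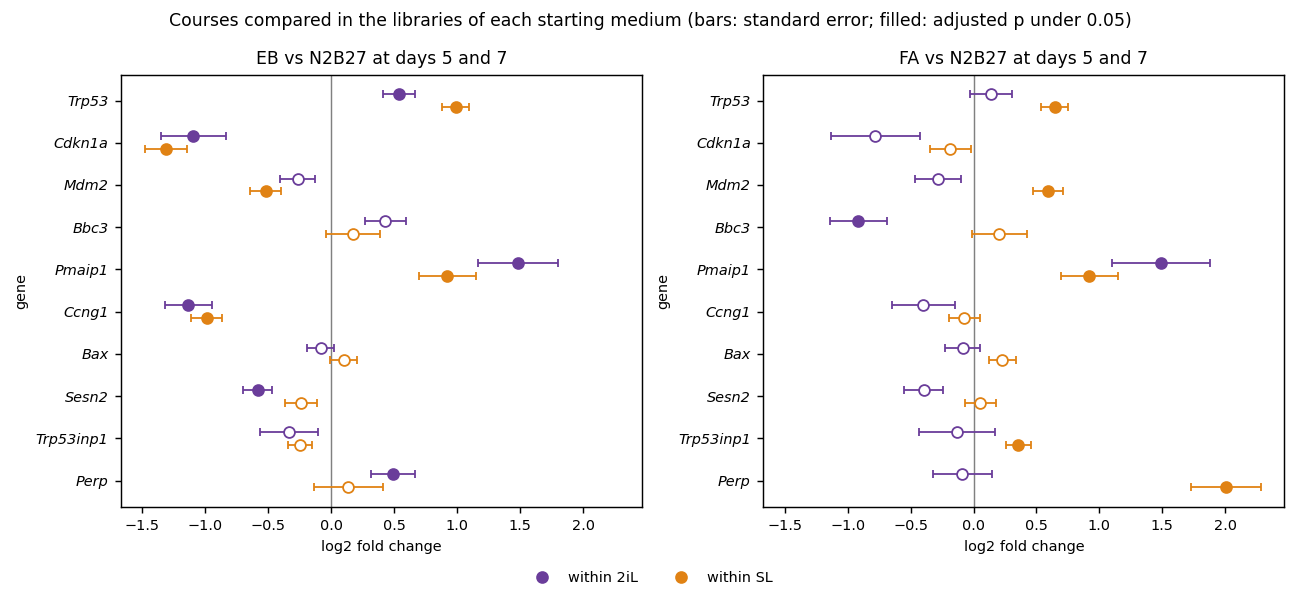
Log2 difference between courses on days 5 and 7 for each gene, EB against N2B27 on the left and FA against N2B27 on the right, fitted within the libraries from 2iL (purple) and within those from SL (orange). Bars are standard errors and filled points have an adjusted p under 0.05. Low Cdkn1a and Ccng1 in EB appear in both media, while high Perp in FA, at 2.00, appears only within SL.

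Divided by exon length, levels can be compared between genes. In 2iL on day 0 the order in CPM per kb (mean ± SD over the 3 libraries, 1 a course) was Ccng1 140.1 ± 27.4, Trp53 73.0 ± 7.85, Trp53inp1 63.7 ± 7.97, Bax 62.5 ± 1.92, Sesn2 40.8 ± 5.12, Mdm2 31.4 ± 5.64, Cdkn1a 19.3 ± 5.44, Bbc3 4.17 ± 0.472, Perp 3.13 ± 0.436 and Pmaip1 2.04 ± 0.316. Neighbours whose ranges of mean ± SD overlapped were Trp53 with Trp53inp1, Trp53inp1 with Bax, and Sesn2 with Mdm2, and the other neighbours did not overlap. The single SL library gave Ccng1 127, Trp53inp1 78.3, Sesn2 46.8, Mdm2 42.1, Bax 41.2, Trp53 40.2, Perp 12.6, Pmaip1 12.0, Bbc3 8.81 and Cdkn1a 8.24 CPM per kb. Cdkn1a, seventh in 2iL, was the lowest of the 10 there. By day 7 from 2iL the order had become Ccng1 215 ± 53.7, Trp53inp1 61.2 ± 6.09, Sesn2 47.5 ± 6.63, Bax 36.0 ± 1.20, Mdm2 31.0 ± 0.459, Trp53 30.7 ± 5.92, Cdkn1a 19.5 ± 5.08, Perp 19.4 ± 3.34, Bbc3 14.3 ± 7.05 and Pmaip1 13.4 ± 5.79 CPM per kb (n = 3). Trp53 had moved from the second to the sixth place, where it overlapped Mdm2, and each neighbour among Cdkn1a, Perp, Bbc3 and Pmaip1 overlapped the next. Day 7 from SL gave Ccng1 166 ± 42.5, Trp53inp1 52.9 ± 8.36, Sesn2 50.1 ± 6.73, Trp53 37.2 ± 15.5, Bax 35.0 ± 0.900, Mdm2 25.3 ± 7.10, Perp 20.5 ± 13.8, Pmaip1 14.9 ± 3.12, Cdkn1a 14.6 ± 5.62 and Bbc3 10.9 ± 2.06 CPM per kb (n = 3), where all neighbours overlapped except Ccng1 with Trp53inp1 and Bax with Mdm2.

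Across the 45 libraries the 10 genes did not run together. Among their 45 pairs the Pearson correlation of log2(CPM + 0.5) ran from -0.74 to 0.79 with a median of 0.17, and 15 pairs lay above 0.5 and 8 below -0.5. The highest were Cdkn1a with Ccng1 (0.79), Bbc3 with Perp (0.79), Ccng1 with Trp53inp1 (0.77) and Trp53 with Bax (0.75). The lowest were Bax with Perp (-0.74), Bax with Sesn2 (-0.73), Bbc3 with Bax (-0.68) and Trp53 with Bbc3 (-0.66). Trp53 gave -0.40 with Cdkn1a and 0.05 with Mdm2. The libraries share courses, days and media, so these values describe the series and carry no test.

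**Figure D5:**
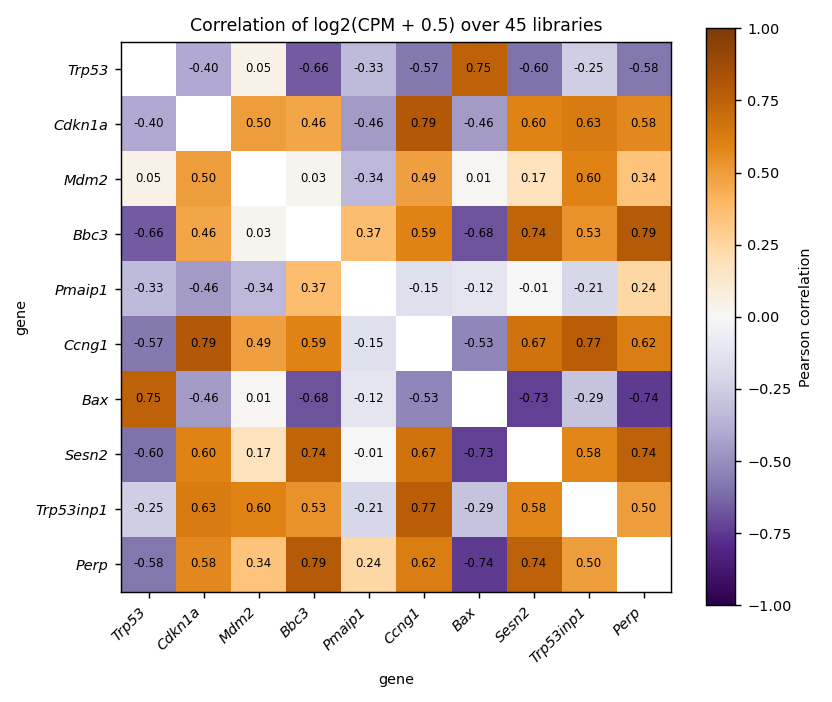
Pearson correlation of log2(CPM + 0.5) over the 45 libraries for each pair of the 10 genes, from -1 (purple) to 1 (brown), with the value printed in each cell. Trp53 is positive with Bax (0.75) and Mdm2 (0.05) and negative with the other genes, and Pmaip1 lies between -0.46 and 0.37 with every other gene.

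Among the 16689 genes compared, those most like Trp53 over the 45 libraries were Smpd4 (r = 0.90), Fiz1 (0.89) and Ubtf (0.88), those most like Cdkn1a were Tmem43 (0.91), Lemd2 (0.89) and Ttc28 (0.88), and those most like Mdm2 were Slc19a2 (0.81), 1700007K13Rik (0.71) and Tmtc3 (0.70). With Spearman's rho these values lay between 0.67 and 0.88, and some ranks fell. Smpd4 and Fiz1 ranked 5 and 7 for Trp53, and Tmtc3 and 1700007K13Rik 10 and 17 for Mdm2. Slc19a2 kept rank 1 for Mdm2.

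The wider pathway also moved in both directions. Of 44 further p53 targets, all tested, 7 were higher and 21 lower over days 1 to 2 from 2iL, with a median log2 difference of -0.30 against 0.02 over all genes. In this early window 25.6% of all genes were higher and 26.9% lower, and the counts of the smaller lists below are to be read against these shares. By days 5 and 7 from 2iL the counts were 18 and 14, with a median of 0.11 against -0.02. The shares of all genes were 34.0% and 35.1% there, so the late counts are near the background. Among the 10 genes of cell cycle arrest, 4 were higher and 5 lower in the early window. Gadd45g and Gadd45a, stress genes that bind PCNA, rose, Gadd45g from 0.373 to 0.654 CPM to 11.4 to 30.2 CPM (median 19.0), 5.19 ± 0.51 (adjusted p = 1.6e-09), and Gadd45a by 2.44 ± 0.20 (adjusted p = 7.1e-11). The noncoding RNA Trp53cor1, which lies next to Cdkn1a and is known as lincRNA-p21, also fell, from 2.75 to 2.93 CPM to 0.0510 to 0.379 CPM (median 0.135) (adjusted p = 2.4e-12), near or under the level of 3 counts, and so did Btg2, an antiproliferative gene, -1.25 ± 0.16 (adjusted p = 3.0e-07). Late in the 2iL courses the arrest list had 5 higher and 3 lower, led by Rprm, 4.08 ± 0.39 (adjusted p = 3.7e-10), and Gadd45g, 3.97 ± 0.52 (adjusted p = 1.4e-07), with Ptprv, -1.50 ± 0.27 (adjusted p = 1.5e-05), and Gtse1, -0.77 ± 0.09 (adjusted p = 1.4e-08), lower. The Ptprv libraries of these days ran from 1.62 to 20.5 CPM, so 1 of them lay above day 0.

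Among 9 targets in metabolism and redox control, 1 was higher and 6 lower over days 1 to 2 from 2iL. Tigar, a brake on glycolysis, fell from 77.0 to 85.7 CPM to 22.7 to 42.3 CPM (median 31.8), -1.44 ± 0.07 (adjusted p = 7.6e-16), and Gpx1, a glutathione peroxidase, was at -1.02 ± 0.14 (adjusted p = 8.5e-07). Late they were at -2.10 ± 0.08 (adjusted p = 6.2e-18) and -2.23 ± 0.17 (adjusted p = 4.4e-12), while Dram1, from at most 0.208 CPM on day 0 to 0.854 to 19.7 CPM (median 2.37) (adjusted p = 2.4e-07), and Ddit4, an inhibitor of mTORC1, 2.25 ± 0.31 (adjusted p = 3.7e-07), had risen. Of 9 other targets the epoxide hydrolase Ephx1 fell most, from 19.5 to 26.2 CPM to 1.88 to 6.79 CPM (median 3.25), -2.66 ± 0.23 (adjusted p = 1.1e-10), and Phlda3 was at -1.50 ± 0.20 (adjusted p = 2.6e-07). The list had 0 higher and 5 lower of 9 in this window and 4 higher and 3 lower of 9 on days 5 and 7, with Tgfa, 3.47 ± 0.44 (adjusted p = 7.4e-08), and Cd82, from at most 0.357 CPM to 0.804 to 5.31 CPM (median 1.52) (adjusted p = 6.6e-04), the most raised. Cd82 lost its call without the N2B27 course, at a log2 difference of 1.28. Of 6 repair genes, 1 higher and 3 lower of 6 were called early and 1 higher and 2 lower of 6 late. Ercc5 was higher late, 1.49 ± 0.13 (adjusted p = 5.5e-11), while Pcna was higher early, 0.32 ± 0.09 (adjusted p = 0.0031), and lower late, -0.46 ± 0.10 (adjusted p = 1.4e-04). The early Pcna call was lost without the EB course, at 0.22.

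Targets in apoptosis gave 1 higher and 2 lower of 10 over days 1 to 2 from 2iL, fewer than the 52.6% of all genes called, with Bid, -1.20 ± 0.08 (adjusted p = 2.2e-12), and Apaf1, -0.61 ± 0.08 (adjusted p = 1.1e-07), lower. It was 5 higher and 1 lower of 10 on days 5 and 7, with the death receptor Fas, from at most 0.399 CPM to 0.678 to 3.38 CPM (median 2.75) (adjusted p = 2.6e-05), and Casp6, 1.37 ± 0.23 (adjusted p = 6.3e-06), higher. The Bcl2 family, to which Bbc3, Pmaip1 and Bax belong, gave 5 higher and 2 lower of 10 in the early window and 5 higher and 3 lower of 10 in the late one. Bmf, a BH3-only gene, rose, from 3.33 to 5.41 CPM to 24.8 to 37.8 CPM (median 29.3), 2.81 ± 0.17 (adjusted p = 9.3e-14). Among the genes that protect cells, Bcl2l1 fell early, -0.69 ± 0.12 (adjusted p = 2.0e-05). Bcl2 rose from at most 0.149 CPM on day 0 to 8.52 to 21.4 CPM (median 12.1) (adjusted p = 3.0e-13), and Mcl1, the partner of Noxa, fell late, -0.87 ± 0.11 (adjusted p = 1.1e-07).

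Regulators of p53 gave 1 higher and 5 lower of 12 over days 1 to 2 from 2iL and 3 higher and 8 lower of 12 on days 5 and 7. Mdm4, the Mdm2 relative that blocks p53, fell from 118 to 161 CPM to 43.1 to 104 CPM (median 87.7), -0.83 ± 0.10 (adjusted p = 3.2e-08), and on days 5 and 7 was at -1.37 ± 0.11 (adjusted p = 1.6e-11). The checkpoint kinase Chek2 fell alongside, -0.89 ± 0.11 (adjusted p = 8.5e-08) and -1.33 ± 0.12 (adjusted p = 2.8e-10). Hipk2, a kinase that acts on p53, and the phosphatase gene Ppm1d rose late, by 1.63 ± 0.18 (adjusted p = 8.4e-09) and 0.76 ± 0.09 (adjusted p = 3.9e-08). Of the p53 relatives Trp63 and Trp73, Trp73 was lower on days 5 and 7, -1.42 ± 0.34 (adjusted p = 6.5e-04), a call lost without the N2B27 course at -0.72, and Trp63 was not called.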

How the data were processed

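Counts of 45 libraries were analysed. Ribosomal RNA was depleted and strand-specific libraries were sequenced, 1 for each medium, course and day. The authors trimmed reads with TrimGalore, aligned them with TopHat2 to GRCm38 (mm10) and made the deposited counts per gene with featureCounts, using strand. Versions of these tools were not given in the sources used here. Total counts per library ran from 13093226 to 39804240. At the median total, 3 counts amount to 0.165 CPM. All genes that passed filterByExpr (17107 of 35372) were fitted in 1 quasi-likelihood model with edgeR 4.0.16 (R 4.3.3) and TMM factors (0.839 to 1.10): a term for each medium and day, and the courses as deviations in 3 windows of days, which act as the replicate block. p-values were adjusted over all 17107 genes (Benjamini-Hochberg), with 0.05 as the threshold, and a standard error is the log2 difference divided by the square root of F. DESeq2 1.42.0 was an alternative, beside other scalings, filters, sample sets and fits without a course. Libraries of the same course deviated together from their group means (mean correlation 0.371 over 260 pairs, and 0.221 to 0.825 over the 20 pairs of the same course and day in both media). The labels give the courses but no culture or batch. The test was also run on simulated counts with known changes, drawn with the spread of the main fit and no course effect. For days 1 to 2 against day 0 from 2iL, it recovered 80% of 2-fold and 97% of 4-fold changes. Simulated libraries of a course did not deviate together, so the check does not cover courses and days as replicates. Named in each comparison were all 10 members and, of each wider pathway list in comparisons with day 0 and of the media, at most the 2 most raised and the 2 most lowered genes called. The 3 genes most correlated with Trp53, Cdkn1a and Mdm2 were also named. The members and lists were chosen with earlier results of these data known. CPM values were computed from the counts, and correlations used log2(CPM + 0.5).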

Additional observations from a re-analysis of the deposited data

Results flagged for a closer look

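The change from day 0 to days 5 and 7 differed between cells from 2iL and cells from SL for 6 of the 10 genes by the interaction term of the edgeR fit, where 27.1% of all genes passed. This term equals the difference between the media on days 5 and 7 minus that on day 0. The 6 genes are the same 6 that were called between the media on day 0, and none was called on days 5 and 7. The values thus largely restate the day 0 differences with the sign turned, and are not a separate result. All 6 values rest on the single SL day 0 library. Pmaip1 gave 2.24 ± 0.39 (adjusted p = 1.2e-04), from log2 changes of 2.63 in 2iL and 0.39 in SL. Perp gave 2.00 ± 0.53 (adjusted p = 0.0059), from 2.56 and 0.55, and was at 1.66 (adjusted p = 0.057) without the EB course and 1.93 (adjusted p = 0.079) without N2B27. The Perp call was also lost with no course block, at 1.45. Bbc3 gave 1.31 ± 0.35 (adjusted p = 0.0062), from 1.68 and 0.38, and was at 1.17 (adjusted p = 0.10) without N2B27. Trp53 gave -1.09 ± 0.22 (adjusted p = 5.5e-04), from -1.14 and -0.05, and Bax gave -0.77 ± 0.18 (adjusted p = 0.0018), from -0.86 and -0.09. Cdkn1a gave -0.98 ± 0.37 (adjusted p = 0.048), from -0.35 and 0.63, and was at -0.86 (adjusted p = 0.080) without EB and -0.99 (adjusted p = 0.19) without N2B27. The Cdkn1a call sat at the threshold. It was also lost with RLE factors at -0.96, with library totals at -0.86, with no filter on low counts at -0.97 and with no course block at -1.03. From days 1 to 2 to days 5 and 7, which does not use day 0, 1 gene differed (all genes 14.5%): Trp53 gave -0.41 ± 0.13 (adjusted p = 0.027), and was at -0.20 (adjusted p = 0.43) without EB and -0.54 (adjusted p = 0.10) without N2B27. This Trp53 call was also lost with no course block, at -0.46.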

How the results depend on the processing

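Each of the 230 values of the 10 genes was recomputed under the alternatives, in 2050 values. Of these, 1864 kept call and direction or were called in neither fit, 128 lost the call, 55 gained one and 3 reversed. Direction was not compared where neither fit called the gene. In all, 38 of the 90 calls held in every alternative run for them. The fit without the replicate block lost 34 calls, the most of any alternative, and not each of these is named above. The cause of these shifts was not tested. Within 2iL the reversed values were -0.088 for Perp (FA against N2B27), 0.011 for Mdm2 and 0.58 for Perp (EB against FA), all on days 5 and 7. The number of the 10 genes called moved by over 1.5 times in the cases that follow. The ranges for leaving out 1 course at a time are the exception, as they cover every comparison, moved or not. Without the replicate block it was 1 for SL day 1 against day 0, 3 for SL days 1 to 2 against day 0, 2 for SL days 2.5 and 3 against day 0, 0 for SL days 5 and 7 against day 0, 3 for 2iL against SL at days 1 to 2, 0 for 2iL against SL at days 2.5 and 3, 1 for EB against N2B27 at days 1 to 2, 1 for EB against FA at days 2.5 and 3 and 0 for 2iL against SL: days 5 and 7 minus days 1 to 2. Without the block fewer of all genes were called too. For SL against day 0 the numbers were 951 in place of 3761 on day 1 and 2580 in place of 5649 over days 1 to 2. They were 3150 in place of 6292 on days 2.5 and 3 and 4408 in place of 7707 on days 5 and 7. For 2iL against SL they were 4220 in place of 7062 at days 1 to 2 and 547 in place of 2647 at days 2.5 and 3. The counts of the 10 genes are to be read beside these. With only the libraries compared the number of the 10 genes was 4 for SL days 5 and 7 against day 0, 2 for 2iL against SL at days 2.5 and 3, 1 for FA against N2B27 at days 1 to 2, 1 for FA against N2B27 at days 2.5 and 3, 4 for EB against FA at days 2.5 and 3, 1 for FA against N2B27 at days 5 and 7 and 1 for EB against FA at days 5 and 7. Of all genes, that fit called 988 in place of 292 for FA against N2B27 at days 1 to 2. On days 5 and 7 it called 2477 in place of 6044 for FA against N2B27 and 406 in place of 3263 for EB against FA. In DESeq2 the number of the 10 genes was 2 for SL days 5 and 7 against day 0, 2 for 2iL against SL at days 2.5 and 3 and 2 for 2iL against SL: days 5 and 7 minus days 1 to 2. With RLE factors it was 2 for SL days 5 and 7 against day 0. With library totals it was 1 for FA against N2B27 at days 2.5 and 3, 1 for EB against FA at days 2.5 and 3 and 2 for 2iL against SL: days 5 and 7 minus days 1 to 2. With no filter on low counts it was 1 for EB against FA at days 2.5 and 3. Within 2iL it was 1 for EB against FA at days 5 and 7, and within SL 4 for EB against FA at days 1 to 2 and 5 for FA against N2B27 at days 5 and 7, the first all lower in EB. Leaving out 1 course at a time gave 3 to 5 for 2iL day 1 against day 0, 3 to 5 for 2iL days 1 to 2 against day 0, 5 to 7 for 2iL days 2.5 and 3 against day 0, 5 to 7 for 2iL days 5 and 7 against day 0, 3 to 6 for SL day 1 against day 0, 6 to 7 for SL days 1 to 2 against day 0, 3 to 5 for SL days 2.5 and 3 against day 0, 2 for SL days 5 and 7 against day 0, 5 to 6 for 2iL against SL at day 0, 4 to 5 for 2iL against SL at days 1 to 2, 1 for 2iL against SL at days 2.5 and 3, 0 to 1 for 2iL against SL at days 5 and 7, 0 for FA against N2B27 at days 1 to 2, 1 for FA against N2B27 at days 2.5 and 3, 3 for FA against N2B27 at days 5 and 7, 3 to 7 for 2iL against SL: days 5 and 7 minus day 0, 0 to 2 for 2iL against SL: days 5 and 7 minus days 1 to 2, 3 for EB against N2B27 at days 1 to 2, 2 for EB against N2B27 at days 2.5 and 3, 6 for EB against N2B27 at days 5 and 7, 2 for EB against FA at days 1 to 2, 1 for EB against FA at days 2.5 and 3 and 2 for EB against FA at days 5 and 7. Scaling by library totals moved the median of all genes from -0.02 to 0.11 for days 5 and 7 against day 0 from 2iL and from -0.01 to 0.12 for FA against N2B27 over days 1 to 2. Over all genes, the number called moved by over 1.5 times in 15 comparisons without the block (at most 80 in place of 784 for 2iL against SL at days 5 and 7), 5 with only the libraries compared (13 in place of 784 for 2iL against SL at days 5 and 7), 3 without EB (690 in place of 292 for FA against N2B27 at days 1 to 2), 5 without FA (215 in place of 784 for 2iL against SL at days 5 and 7), 5 without N2B27 (768 in place of 2472 for 2iL against SL: days 5 and 7 minus days 1 to 2), 5 within 2iL (574 in place of 2152 for FA against N2B27 at days 2.5 and 3), 7 within SL (17 in place of 292 for FA against N2B27 at days 1 to 2), and 1 each with library totals (1316 in place of 292 for FA against N2B27 at days 1 to 2) and in DESeq2 (605 in place of 292 for FA against N2B27 at days 1 to 2). The SL day 0 library cannot be left out, and changes of genes near 0.165 CPM were not resolved at this depth.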

Other observations

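In cells from SL the wider pathway by days 5 and 7 gave 8 higher and 17 lower of 44 further targets against day 0, with a median log2 difference of -0.15 against 0.00 over all genes. Of all genes 21.2% were higher and 23.8% lower. Rprm, an arrest gene, was higher, 2.69 ± 0.56 (adjusted p = 3.1e-04), and Ptprv and Gadd45a were lower, -2.34 ± 0.33 (adjusted p = 2.4e-06) and -1.74 ± 0.24 (adjusted p = 1.2e-06). Tigar, which restrains glycolysis, was lower, -1.25 ± 0.11 (adjusted p = 5.0e-10), as was Ephx1, -2.79 ± 0.34 (adjusted p = 1.8e-07). The death genes Bid and Siva1 were lower, -0.71 ± 0.14 (adjusted p = 1.5e-04) and -0.49 ± 0.14 (adjusted p = 0.0062), and the protease gene Casp6 was higher, 1.30 ± 0.35 (adjusted p = 0.0034). Among regulators of p53, Mdm4 was lower, -1.41 ± 0.15 (adjusted p = 1.2e-08), with Chek2, -0.78 ± 0.18 (adjusted p = 6.7e-04), and Hipk2 was higher, 2.10 ± 0.30 (adjusted p = 2.1e-06), from a list with 3 higher and 5 lower of 12.

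Before differentiation the media differed in 6 higher and 11 lower of 44 further targets, counted in 2iL relative to SL, where 17.5% of all genes were higher and 17.8% lower, 35.3% together, so the number called is near the background. Gadd45a was lower in 2iL, -3.42 ± 0.27 (adjusted p = 5.6e-10), as were Ddit4, -1.57 ± 0.42 (adjusted p = 0.0046), and the BH3-only gene Bmf, -2.94 ± 0.22 (adjusted p = 3.3e-10). Bid was higher in 2iL, 0.70 ± 0.16 (adjusted p = 0.0012), as were Gpx1, 2.04 ± 0.30 (adjusted p = 7.1e-06), Pcna, 0.60 ± 0.16 (adjusted p = 0.0041), and Chek2, 0.73 ± 0.20 (adjusted p = 0.0066). These values share the single SL day 0 library with those of the 10 genes.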
